A study of Homo sapiens with 6 samples.

Results

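Transcripts of 8 genes that act on phosphoinositide 3-kinase (PI3K) signalling were compared between wild-type and ARID1A knockout cells. They are PIK3IP1, the catalytic subunit genes PIK3CA, PIK3CB and PIK3CD, the regulatory subunit genes PIK3R1, PIK3R2 and PIK3R3, and the phosphatase gene INPP4B. Members were taken by gene symbol from the 57820 genes of the count tables, where the 8 symbols fill 9 rows because PIK3R2 is listed under 2 identifiers. Enough reads for a test were present for 7 of the 8 symbols. The cells were AID-DIvA cells, a human U2OS osteosarcoma line that carries the restriction enzyme AsiSI in a form that is switched on by a drug and removed by auxin. No agent was added here, so the enzyme was not induced in either genotype. RNA was sequenced from 3 WT and 3 ARID1A-KO samples, and both genotypes have replicates 3, 4 and 5. ARID1A encodes a DNA-binding subunit of a SWI/SNF chromatin remodelling complex, and both genotypes carry the AsiSI construct. The clone behind the ARID1A-KO samples is not given in the sources used here. All 3 may come from 1 clone, and p-values measure the spread between these samples only.

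Class IA PI3K is a dimer of a catalytic subunit, which adds a phosphate to a membrane lipid, and a regulatory subunit, which stabilizes the catalytic subunit and brings it to activated receptors. The lipid product recruits the kinases PDPK1 and AKT to the membrane, and AKT then phosphorylates FOXO transcription factors, GSK3 and the TSC complex upstream of mTOR. Lipid phosphatases work against the kinase, and INPP4B removes a phosphate from a later lipid of the same route. PIK3IP1 is a transmembrane protein that binds the catalytic subunit and lowers its activity. PI3K signalling is known for its part in the growth and survival of many tumours, and PIK3CA is among the genes most often mutated in them.

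The upstream regions of PIK3IP1, the gene that rose, and of INPP4B, the gene that fell most, are shown because these are the members with the largest changes in either direction. Each is the 250 bases before a transcription start site in RefSeq, read from the strand of the gene, from the RefSeq annotation of GRCh38.p14. Both matched GRCh37, the build of the count tables, without a mismatch. In GRCh37 the PIK3IP1 region is chr22:31688521-31688770 on the minus strand and ends at the gene start of the count tables. The INPP4B region is chr4:143767455-143767704 on the minus strand, and its start site lies 1131 bases inside the gene start of the count tables.
PIK3IP1: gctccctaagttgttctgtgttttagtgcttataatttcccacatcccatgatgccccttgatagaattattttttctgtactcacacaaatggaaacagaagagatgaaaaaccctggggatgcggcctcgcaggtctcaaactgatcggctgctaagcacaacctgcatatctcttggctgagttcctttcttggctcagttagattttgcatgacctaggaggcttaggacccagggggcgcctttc
INPP4B: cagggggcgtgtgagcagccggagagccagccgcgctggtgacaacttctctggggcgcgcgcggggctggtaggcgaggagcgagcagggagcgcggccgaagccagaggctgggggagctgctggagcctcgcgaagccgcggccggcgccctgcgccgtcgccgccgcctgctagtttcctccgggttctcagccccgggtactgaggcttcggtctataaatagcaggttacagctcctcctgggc
The PIK3IP1 region has a GC content of 46.8% and 4 CpG dinucleotides, whereas that of INPP4B has 70.8% and 27. The median GC content over 34788 RefSeq regions of the same length was 58%. The ratio of observed to expected CpG was 0.293 for PIK3IP1 and 0.874 for INPP4B, against a median of 0.556 over those regions. Neither region holds the AP-1 letters TGANTCA or the FOXO letters GTAAACA on either strand, which occur in 6.59% and 2.98% of the regions. The FOXO letters were found once among the upstream regions of the 8 genes, in that of PIK3CA. The first exon of PIK3IP1-DT, a long noncoding RNA on the opposite strand, covers 164 bases of the PIK3IP1 region. An exon of an INPP4B transcript whose coding sequence is not defined covers 30 bases of the INPP4B region.

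ARID1A itself, on chromosome 1 from 27022524 to 27108595, had 166, 178 and 177 CPM, the counts per library total after TMM scaling, in the WT samples and 25.1, 27.5 and 25.2 CPM in the ARID1A-KO samples, in keeping with the labels. It fell by 2.74 on the log2 scale (edgeR's quasi-likelihood test, adjusted p = 9.66e-08). Reverse-stranded counts per sample ranged from 54512105 to 84088708. The first principal component held 75.1% of the variance and separated the genotypes. Of the markers of the labelled cell of origin, VIM and COL1A1 were abundant, whereas COL1A2 stayed under 0.3 CPM and the osteoblast gene BGLAP under 0.2 CPM. The summed CPM of 7 mesenchymal and osteoblast markers was 3390 to 3800 in WT and 4630 to 5220 in ARID1A-KO. VIM alone rose among them (2350 to 4220 CPM on average), whereas COL1A1 (log2 fold change -0.47), SPARC (-0.89) and ALPL (-2.45) fell, and the median of the 6 tested was -0.46. The sum of 4 epithelial markers was 721 to 835 CPM in WT and 492 to 514 CPM in ARID1A-KO, with 1 called higher and 3 lower. The 6 leukocyte markers summed to 2.28 to 2.92 CPM in WT and 4.13 to 5.23 CPM in ARID1A-KO, with CD3E and CD68 at or near 0. Their sum was mostly ITGAM, which rose from a mean of 0.503 to 3.91 CPM, and PTPRC, which fell from 1.95 to 0.445 CPM (edgeR adjusted p = 2.38e-05 and 0.00292). The part of these markers in the results was not tested.

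Among the 7 tested members, INPP4B, PIK3CB and PIK3R1 were lower and PIK3IP1 was higher in ARID1A-KO cells. A gene is called changed at an adjusted p under 0.05 after Benjamini-Hochberg correction over the 19599 genes tested. Under that rule 36.2% of all tested genes were called, 17.8% as higher and 18.4% as lower, so a called gene was common in this comparison. The CPM of the genotypes did not overlap for 4 of the 7 members and for 49.5% of all tested genes. The median log2 fold change (ARID1A-KO over WT) was -0.11 over the 7 members and 0.0066 over all tested genes. In bulk RNA, fewer cells with a transcript and less transcript per cell cannot be told apart.

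**Figure D1:**
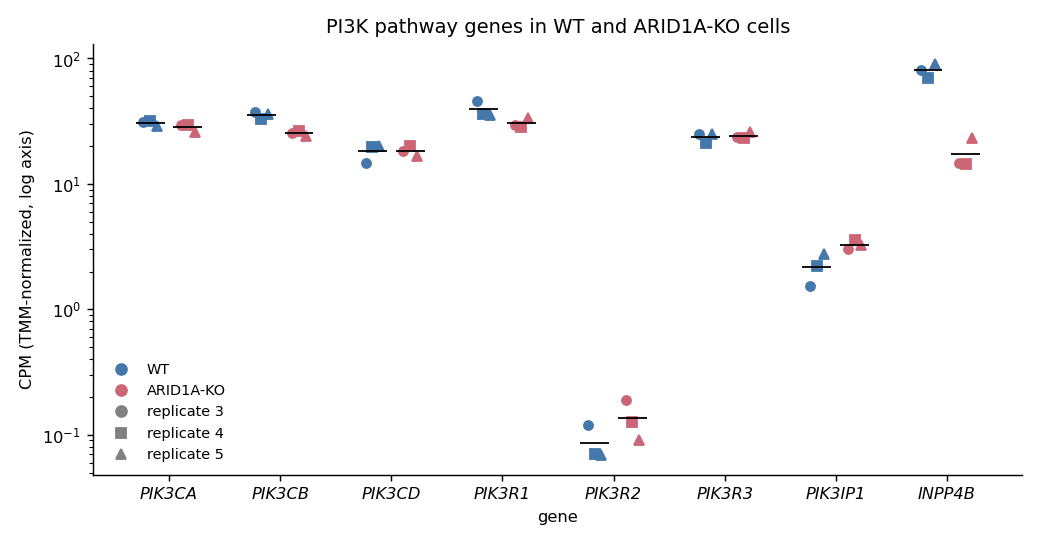
TMM-normalized CPM (log axis) of each gene in the 3 WT (blue) and 3 ARID1A-KO (red) samples, with symbols for replicate numbers and bars at group means. The ARID1A-KO points of INPP4B lie far below its WT points, those of PIK3CB and PIK3R1 lie slightly below and those of PIK3IP1 slightly above. PIK3R2 is its first row (ENSG00000105647.10).

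INPP4B, the phosphatase, showed the largest change of the 7 tested members. The gene (ENSG00000109452.8) lies on chromosome 4 from 142944313 to 143768585. Its level was 81.6, 69.8 and 91.1 CPM in WT and 14.7, 14.5 and 23.1 CPM in ARID1A-KO. Every WT sample was above every ARID1A-KO sample by a wide margin, and replicate 5 was the highest sample of both genotypes. The mean was 80.8 ± 10.6 CPM in WT and 17.5 ± 4.92 CPM in ARID1A-KO (SD, n = 3 each), a WT level 4.63 times that of ARID1A-KO. INPP4B fell by 2.20 on the log2 scale (SE 0.18, 95% interval -2.61 to -1.80, edgeR adjusted p = 2.75e-05). The call held in all 13 alternative fits, with log2 fold changes from -2.47 to -1.67.

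The genes around INPP4B were also mostly lower in ARID1A-KO cells. Of 51 other tested genes with a start within 5 Mb of its own, 26 were called lower and 9 higher, with a median log2 fold change of -0.53. INPP4B fell further than 49 of these 51. The lower genes did not fill the window. Along its direction of transcription, every called gene from SMAD1 at -2.634 Mb (log2 fold change 0.75) to ARHGAP10 at -4.885 Mb (0.72) was higher. The median of -0.53 spans both this stretch and the lower genes around INPP4B. The nearest tested gene on one side was IL15, a cytokine gene 289173 bp away, with a log2 fold change of -2.07 (edgeR adjusted p = 0.000412). On the other side, USP38, a deubiquitinase gene, had a log2 fold change of -0.72 (edgeR adjusted p = 6.4e-05). With the median of the neighbours entered as an offset for the ARID1A-KO samples, the log2 fold change of INPP4B was -1.67 (SE 0.18, edgeR adjusted p = 0.000161). Here and for all genes below, such a median was entered as a fixed value. Its own error is therefore not part of the SE or p-value of an offset fit. With their own offsets, USP38 had -0.18 and was not called (edgeR adjusted p = 0.06982), whereas IL15 stayed called. IL15 was called in all 13 alternative fits, with log2 fold changes from -2.54 to -1.54. No gene that overlaps INPP4B had more than 2 counts in a sample.

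**Figure D2:**
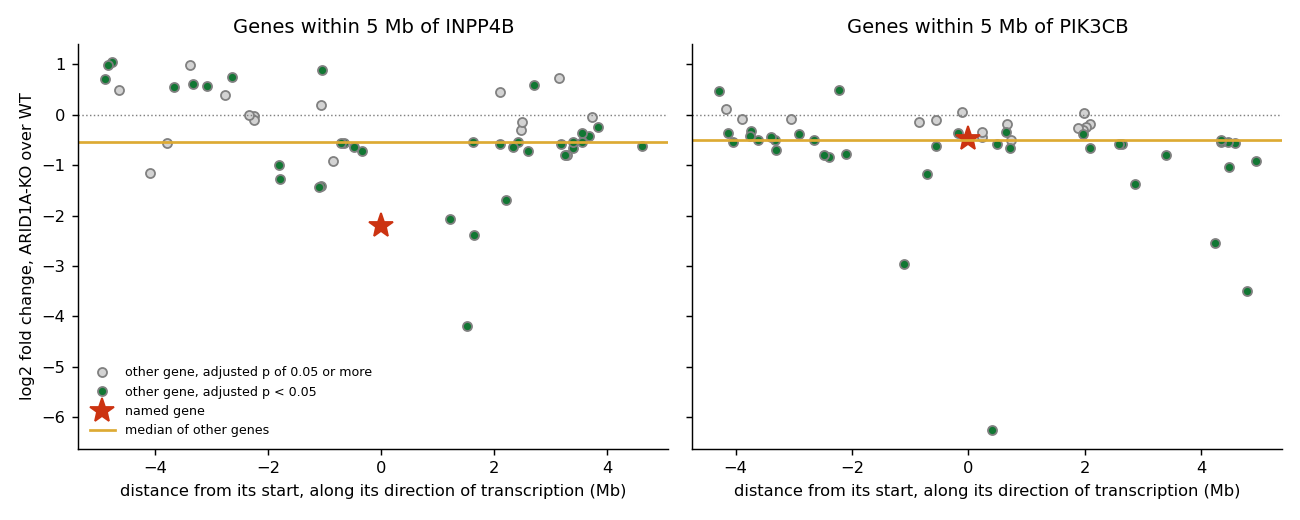
Log2 fold change (ARID1A-KO over WT) of each tested gene against the distance of its start from that of INPP4B (left) or PIK3CB (right), in Mb along the direction in which the named gene is transcribed. The star of INPP4B at -2.20 lies below the line at -0.53, the median of its 51 neighbours, whereas the star of PIK3CB at -0.48 lies on the median of its 52 neighbours at -0.49.

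PIK3IP1, the inhibitor of the catalytic subunit, was weakly expressed and was higher in ARID1A-KO cells. The gene (ENSG00000100100.8) lies on chromosome 22 from 31677579 to 31688520 on the minus strand. It had 102, 156 and 161 counts in WT and 204, 198 and 286 counts in ARID1A-KO. After normalization these were 1.53, 2.20 and 2.77 CPM in WT and 3.00, 3.60 and 3.25 CPM in ARID1A-KO. The groups did not overlap, but the highest WT sample and the lowest ARID1A-KO sample lay close together, and WT replicate 3 was the lowest sample. Means were 2.16 ± 0.619 CPM and 3.28 ± 0.305 CPM (SD, n = 3 each), a ratio of 1.52. The log2 fold change was 0.60 (SE 0.21, 95% interval 0.13 to 1.07, edgeR adjusted p = 0.0478).

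The rise of PIK3IP1 lay just inside the threshold, and its call depended on single samples. Leaving out any 1 sample other than WT replicate 5 ended it, with edgeR adjusted p-values from 0.07093 to 0.1445. The log2 fold change was 0.39 without WT replicate 3 and 0.81 without WT replicate 5. Counts without regard to strand were 136, 194 and 207 in WT and 234, 217 and 323 in ARID1A-KO. On these, the log2 fold change was 0.41 and the gene was not called (edgeR adjusted p = 0.1348). DESeq2 called it, with a log2 fold change of 0.60 and an adjusted p of 0.02708. The value was above 0 in all 13 alternative fits.

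Over the whole window of 5 Mb, the 107 other tested genes around PIK3IP1 had a median log2 fold change of -0.024. Of these, 13 were called higher and 20 lower, and 99 had a lower log2 fold change than PIK3IP1. The calls were not spread evenly. Along its direction of transcription, every called gene from SELM at 0.1725 Mb (log2 fold change 0.64) to MTFP1 at 0.867 Mb (0.49) was higher. On the other side DEPDC5 at -0.4614 Mb (0.25) was called higher and C22orf24 at -0.653 Mb (-0.85) lower. The part of this stretch in the rise of PIK3IP1 was not tested. LIMK2, a kinase gene of actin regulation 1513 bp away, had a log2 fold change of -0.23 (edgeR adjusted p = 0.0169), and its call was lost without ARID1A-KO replicate 3, ARID1A-KO replicate 4 or WT replicate 3. PATZ1, a zinc finger gene on the other side, had a log2 fold change of 0.11 and was not called (edgeR adjusted p = 0.225). PIK3IP1-DT, whose first exon lies in the sequence given above, overlaps PIK3IP1 over 36 bp on the opposite strand and had 0 to 8 counts per sample.

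Among the genes whose log2 CPM followed that of PIK3IP1 most closely over the 6 samples were ACP6, PARP3, CD40 and ZNF672, with Pearson's r from 0.9901 to 0.9952. They were among the 5 highest of 13216 genes with a mean log2 CPM over 1, of which 387 had an r above 0.9. The 6 samples are 3 of WT and 3 of ARID1A-KO, and the genes were picked by their r, so the correlations are a description. The log2 fold changes of these 4 genes were smaller than that of PIK3IP1, between 0.20 and 0.38. CD40, a receptor of the TNF receptor family, was called at 0.29 (edgeR adjusted p = 0.0293) and ZNF672, a zinc finger gene, at 0.38 (edgeR adjusted p = 0.0254). Both calls were lost without ARID1A-KO replicate 4, ARID1A-KO replicate 5 or WT replicate 3.

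Among the catalytic subunits, PIK3CB was lower in ARID1A-KO cells, whereas PIK3CA and PIK3CD were not called. PIK3CB encodes the beta isoform, which most tissues express. It lies on chromosome 3 from 138372860 to 138553780, and its level was 37.1, 32.7 and 36.0 CPM in WT and 25.4, 26.6 and 24.1 CPM in ARID1A-KO. All WT samples were above all ARID1A-KO samples. The mean went from 35.3 ± 2.26 to 25.4 ± 1.26 CPM (SD, n = 3 each), and PIK3CB fell by 0.48 on the log2 scale (SE 0.075, edgeR adjusted p = 0.00116). Its neighbours were lower by the same amount. Of 52 other tested genes within 5 Mb, 35 were called lower and 2 higher, and their median log2 fold change was -0.49. With that median as an offset, the log2 fold change of PIK3CB was 0.014 (SE 0.075, edgeR adjusted p = 0.906), and the gene was no longer called. Of the nearest genes, FAIM, an inhibitor of apoptosis, had -0.35 (edgeR adjusted p = 0.124) and FOXL2NB, a neighbour of FOXL2, had 0.061 (edgeR adjusted p = 0.933).

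PIK3CA, the alpha isoform, on chromosome 3 from 178865902 to 178957881, had 31.2, 31.5 and 29.2 CPM in WT and 29.5, 29.6 and 26.0 CPM in ARID1A-KO, and the groups overlapped. Its log2 fold change was -0.11 (95% interval -0.28 to 0.062, edgeR adjusted p = 0.294). Here too the neighbours were lower, with a median log2 fold change of -0.26 over 44 genes, of which 20 were called lower and 1 higher. The nearest were ZMAT3, a target of p53, at -0.34 (edgeR adjusted p = 0.00476) and the pseudogene LRRFIP1P1 at -0.18 (edgeR adjusted p = 0.551). With its neighbour median as an offset, ZMAT3 had -0.075 and was not called (edgeR adjusted p = 0.4502). KCNMB3, a potassium channel subunit gene, overlaps PIK3CA over 352 bp on the opposite strand and had a log2 fold change of -0.26 (edgeR adjusted p = 0.289).

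PIK3CD, the delta isoform best known from leukocytes, on chromosome 1 from 9711790 to 9789172, was present at 14.6, 19.8 and 20.2 CPM in WT and 18.4, 20.1 and 16.7 CPM in ARID1A-KO. WT replicate 3 was the lowest sample and the groups overlapped. Its log2 fold change was 0.016 (95% interval -0.28 to 0.31, edgeR adjusted p = 0.94). PIK3CD-AS2, an antisense RNA that overlaps PIK3CD over 15130 bp, was higher in ARID1A-KO. The antisense RNA had 2.80, 2.27 and 3.49 CPM in WT and 6.15, 6.39 and 6.06 CPM in ARID1A-KO, a log2 fold change of 1.12 (SE 0.16, edgeR adjusted p = 0.000676). Reverse-stranded counts keep the antisense RNA and PIK3CD apart. Of the tested genes next to PIK3CD, CTNNBIP1, an inhibitor of beta-catenin, had -0.45 (edgeR adjusted p = 0.0337) and TMEM201, a nuclear membrane protein gene, had -0.013 (edgeR adjusted p = 0.926). The call of CTNNBIP1 was lost in 4 of the 6 fits without 1 sample. CLSTN1, which overlaps the end of PIK3CD over 89 bp, had -0.095 (edgeR adjusted p = 0.288).

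Of the regulatory subunits, PIK3R1 was lower in ARID1A-KO cells and PIK3R3 was not called. PIK3R1 encodes the main regulatory subunit of many cell types and lies on chromosome 5 from 67511548 to 67597649. Its level was 45.7, 36.4 and 35.5 CPM in WT and 29.4, 28.5 and 33.8 CPM in ARID1A-KO. The groups did not overlap, though WT replicate 5 and ARID1A-KO replicate 5 lay close together. PIK3R1 fell by 0.36 on the log2 scale (SE 0.11, 95% interval -0.60 to -0.11, edgeR adjusted p = 0.0295), from 39.2 ± 5.62 to 30.6 ± 2.83 CPM (SD, n = 3 each). The call was lost without ARID1A-KO replicate 3 (edgeR adjusted p = 0.09309), ARID1A-KO replicate 4 (0.1086) or WT replicate 3 (0.08288), where the log2 fold change was -0.24. Over the 63 other tested genes within 5 Mb the median log2 fold change was -0.013, and 7 of them had a lower value than PIK3R1. The nearest were the noncoding gene ENSG00000250421, at 1.36 (edgeR adjusted p = 0.0122), and the zinc transporter gene SLC30A5, at 0.094 (edgeR adjusted p = 0.28). The call of ENSG00000250421 was lost in DESeq2 and without WT replicate 3.

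PIK3R3, on chromosome 1 from 46505812 to 46642160, had 24.9, 21.2 and 25.0 CPM in WT and 23.7, 23.2 and 25.9 CPM in ARID1A-KO. The samples of the genotypes were interleaved, and the log2 fold change was 0.034 (95% interval -0.16 to 0.23, edgeR adjusted p = 0.798). TSPAN1, a tetraspanin gene that overlaps PIK3R3 over 1416 bp on the opposite strand, was 2.44, 1.99 and 2.37 CPM in WT and 5.01, 5.35 and 6.36 CPM in ARID1A-KO. TSPAN1 thus rose by 1.30 on the log2 scale (SE 0.15, edgeR adjusted p = 0.000186) while the gene on the other strand was not called. MAST2, a kinase gene 4016 bp from PIK3R3, had -0.38 (edgeR adjusted p = 0.00786), and POMGNT1, a glycosyltransferase gene on the other side, had 0.11 (edgeR adjusted p = 0.305).

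**Figure D3:**
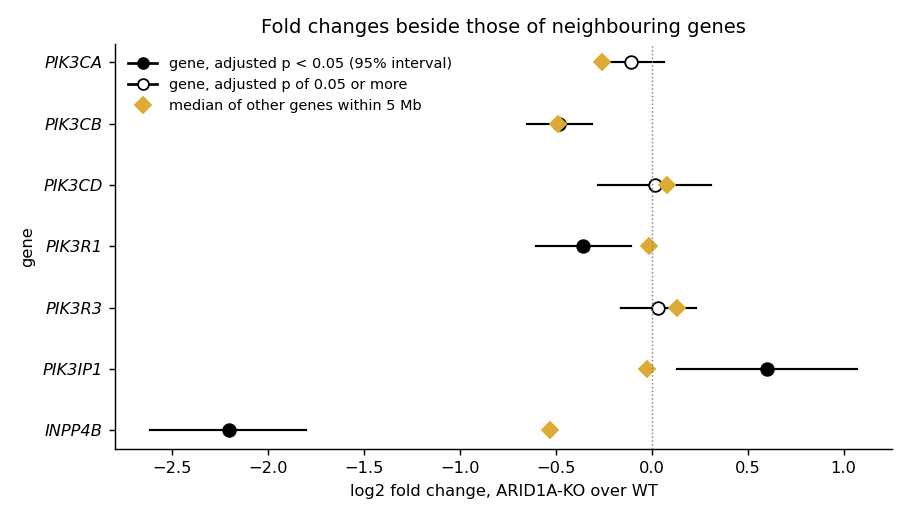
Log2 fold change (ARID1A-KO over WT, circles) with its 95% interval for the 7 tested genes, filled where the adjusted p was under 0.05, and the median of the other tested genes within 5 Mb (diamonds). PIK3CB lies on its diamond, whereas the intervals of INPP4B, PIK3IP1 and PIK3R1 do not reach theirs.

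PIK3R2 was counted at 4 to 13 reads per sample in its first row (ENSG00000105647.10, chromosome 19 from 18263928 to 18281350) and at 0 or 1 read in its second (ENSG00000268173.1, from 18263968 to 18288927). The rows overlap on the same strand over 17383 bp, and the second reaches into IFI30. By default featureCounts leaves out reads that fall on more than 1 gene, so these values cannot be read as the level of PIK3R2, and neither row had enough reads for a test. The part of the overlap in the low counts was not tested. The genes around it were measured, with MAST3, a kinase gene, at a log2 fold change of -0.52 (edgeR adjusted p = 0.000603) and MPV17L2, a mitochondrial membrane protein gene, at -0.68 (edgeR adjusted p = 0.000406). With the neighbour median as an offset, MAST3 was no longer called (edgeR adjusted p = 0.1413), and MPV17L2 had -0.31 (edgeR adjusted p = 0.0263). IFI30, a lysosomal reductase gene, had 5 to 18 counts per sample and a log2 fold change of 0.55 (edgeR adjusted p = 0.362), with a part of its reads open to the same exclusion.

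To set the members beside each other, TPM values were used, which also divide the counts by exonic length. In WT cells INPP4B was highest at 18.7 ± 2.45 TPM, followed by PIK3CB at 17.7 ± 1.26 TPM (SD, n = 3 each), and the ranges of these neighbours in the order overlapped. PIK3R1 (11.9 ± 1.85 TPM), PIK3CA (10.7 ± 0.504 TPM), PIK3R3 (10.2 ± 0.969 TPM) and PIK3CD (9.06 ± 1.47 TPM) came next, each overlapping the next in the order. PIK3IP1 stood apart from these at 1.86 ± 0.517 TPM. In ARID1A-KO cells PIK3CB was highest at 12.7 ± 0.563 TPM, with no overlap with the next gene. PIK3R3, PIK3CA, PIK3R1 and PIK3CD followed between 9.13 and 10.4 TPM with overlapping ranges. INPP4B came sixth at 4.06 ± 1.28 TPM, above PIK3IP1 at 2.82 ± 0.312 TPM.

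PIK3CB made up 50.7%, 44.1% and 47.2% of the TPM of the 3 catalytic subunit genes in WT and 39.6%, 39.7% and 41.0% in ARID1A-KO. Its share did not overlap between genotypes and its mean differed by -7.23 percentage points. PIK3CA had a mean share of 28.5 ± 1.70% in WT and 31.1 ± 0.725% in ARID1A-KO, and PIK3CD had 24.2 ± 3.80% and 28.8 ± 0.794% (SD, n = 3 each), also without overlap. The difference of PIK3CD, 4.63 percentage points, was 2.44 without WT replicate 3, and that of PIK3CA, 2.59, was 1.61 without WT replicate 5. Among the regulatory subunits the share of PIK3R1 was 53.7 ± 3.29% in WT and 47.0 ± 0.888% in ARID1A-KO, and that of PIK3R3 was 45.9 ± 3.32% and 52.5 ± 0.730% (SD, n = 3 each). These regulatory shares leave out what PIK3R2 may add, since its reads were not countable. Each of these 5 shares had an exact two-sided permutation p of 0.1, the smallest that 3 against 3 samples allow, and 0.14 after adjustment over 7 measures. Shares within a class sum to the whole, so these are not separate results. A lower share of PIK3CB or PIK3R1 goes with higher shares of the others in its class. By their own counts PIK3CA, PIK3CD and PIK3R3 were not called, with log2 fold changes of -0.11, 0.016 and 0.034. The ratio of summed regulatory to summed catalytic TPM was 0.670, 0.542 and 0.563 in WT and 0.596, 0.554 and 0.725 in ARID1A-KO, with overlapping groups (exact permutation p = 0.6).

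**Figure D4:**
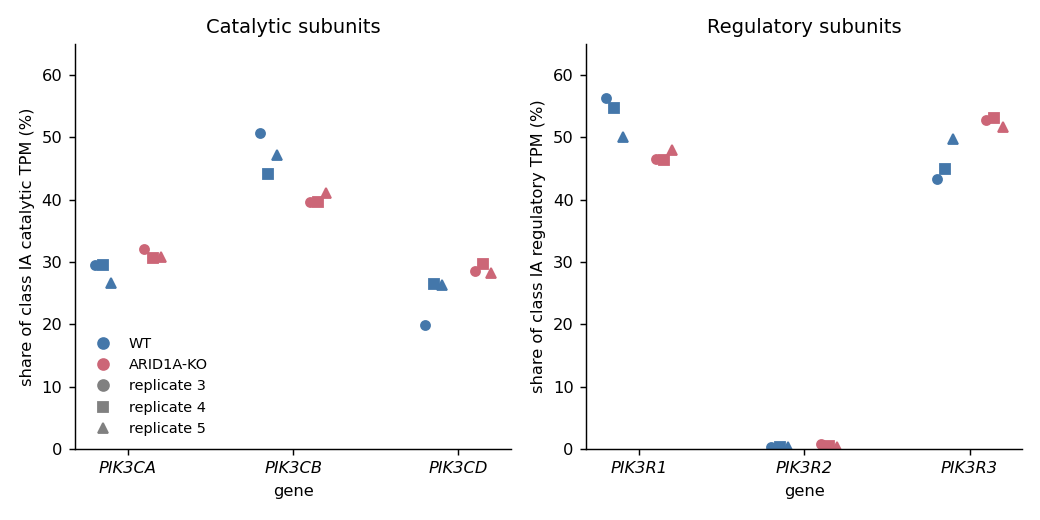
Share (%) of each gene in the summed TPM of the class IA catalytic (left) and regulatory (right) subunit genes, per sample, with WT in blue and ARID1A-KO in red. The PIK3CB and PIK3R1 points of ARID1A-KO lie below those of WT, and the PIK3CA, PIK3CD and PIK3R3 points lie above. PIK3R2 is near 0, and its rows overlap each other.

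Beyond the members, 72 genes of the pathway were read in 5 lists, of which 67 were tested and 29 were called, 11 as higher and 18 as lower. That is 43.3% of the tested genes, beside 36.2% of all tested genes, and their median log2 fold change was -0.023. With the neighbour median as an offset, 21 were called. The share called was 8 of 10 for other PI3K subunits and adaptors, 7 of 12 for phosphoinositide phosphatases, 5 of 14 for AKT and its substrates, 4 of 17 for TSC and mTOR genes and 5 of 14 for FOXO target genes.

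**Figure D5:**
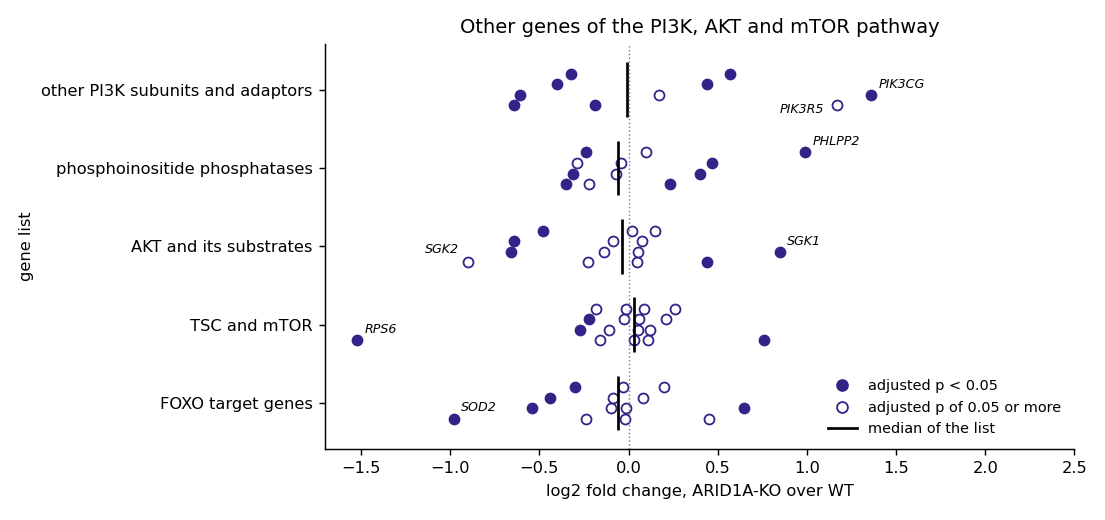
Log2 fold change (ARID1A-KO over WT) of each tested gene in 5 lists of the pathway, filled where the adjusted p was under 0.05, with a bar at the median of the list. The medians lie between -0.061 and 0.03, and RPS6 at -1.52 and PIK3CG at 1.36 lie farthest from 0.

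Of the other PI3K subunits and adaptors, 3 rose and 5 fell. The adaptor genes that link receptors to PI3K moved in both directions, with IRS1 at a log2 fold change of -0.61 (edgeR adjusted p = 0.000535), GAB1 at -0.64 (edgeR adjusted p = 0.0014) and GAB2 at 0.57 (edgeR adjusted p = 0.000863). IRS1, the insulin receptor substrate, had 123, 108 and 128 CPM in WT and 73.7, 85.6 and 75.5 CPM in ARID1A-KO, without overlap. GAB1 lay among neighbours with a median log2 fold change of -0.53, and was not called with that median as an offset (edgeR adjusted p = 0.45). PIK3CG, the class IB catalytic subunit, was near the limit of detection at 0.155 to 0.300 CPM in WT and 0.409 to 0.705 CPM in ARID1A-KO (log2 fold change 1.36, edgeR adjusted p = 0.0103). PIK3C2A, a class II kinase, had -0.40 (edgeR adjusted p = 0.00765), and PIK3R4, which serves the class III kinase, had -0.32 (edgeR adjusted p = 0.0122). PIK3R4 lay among neighbours with a median of -0.43, and with that offset its log2 fold change was 0.11.

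Of the phosphoinositide phosphatases, 4 rose and 3 fell. PHLPP2, a phosphatase of AKT placed in this list, rose from 47.1 ± 1.65 to 93.7 ± 3.96 CPM (SD, n = 3 each; log2 fold change 0.99, edgeR adjusted p = 6.05e-06), and remained called with its offset at 0.47. INPP4A, the paralog of INPP4B, had 55.5 ± 2.92 CPM in WT and 47.2 ± 4.00 CPM in ARID1A-KO (SD, n = 3 each). The log2 fold change of INPP4A was -0.24 (edgeR adjusted p = 0.041), and its call was lost in 6 of 13 alternative fits. INPPL1, which removes another phosphate from the product of PI3K, had -0.31 (edgeR adjusted p = 0.0311), and its call was lost in 4 of 13 alternative fits.

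AKT1 and AKT2, central kinases of the route, had log2 fold changes of -0.14 and -0.09, and neither was called (edgeR adjusted p = 0.234 and 0.263). With its neighbour median as an offset, AKT2 had -0.18 and was called (edgeR adjusted p = 0.04517). PDPK1, which activates AKT1 and AKT2, had 0.021 (edgeR adjusted p = 0.817). Of their relatives and substrates, SGK1 rose and GSK3B fell. SGK1, a kinase also activated by PDPK1, had 10.6, 17.7 and 10.8 CPM in WT and 25.6, 26.0 and 18.8 CPM in ARID1A-KO, a log2 fold change of 0.85 (edgeR adjusted p = 0.0101). GSK3B, a kinase that AKT inhibits, had a log2 fold change of -0.66 (edgeR adjusted p = 0.000157) among neighbours with a median of -0.43, and with that offset it had -0.23 (edgeR adjusted p = 0.03972). FOXO1 and FOXO3, transcription factors that AKT keeps out of the nucleus, changed in opposite directions. FOXO1 rose by 0.44 on the log2 scale (edgeR adjusted p = 0.0144), and its call was lost without ARID1A-KO replicate 3 or 4. FOXO3 fell by 0.48 (edgeR adjusted p = 0.00781), from 39.4 ± 4.14 to 28.4 ± 3.57 CPM (SD, n = 3 each).

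Most TSC and mTOR genes were not called. MTOR had a log2 fold change of 0.11 (edgeR adjusted p = 0.303) and TSC1 had -0.11 (edgeR adjusted p = 0.151). With its neighbour median as an offset, TSC1 had -0.18 and was called (edgeR adjusted p = 0.03516). TSC2, the other TSC subunit with TSC1, fell by 0.27 on the log2 scale (edgeR adjusted p = 0.0155), but not without ARID1A-KO replicate 3 (edgeR adjusted p = 0.07112). EIF4EBP2, a translation inhibitor that mTOR phosphorylates, rose from 45.0 ± 2.04 to 76.5 ± 4.83 CPM (SD, n = 3 each; log2 fold change 0.76, edgeR adjusted p = 4.68e-05). The median of its neighbours was 0.40, and with that offset EIF4EBP2 had 0.37 and was still called (edgeR adjusted p = 0.003524). RPS6, the ribosomal protein at the end of this route, had 1400, 1510 and 1310 CPM in WT and 526, 497 and 449 CPM in ARID1A-KO. It fell by 1.52 on the log2 scale (edgeR adjusted p = 3.45e-06), among 28 neighbours with a median of -1.45. With that offset its log2 fold change was -0.073 and RPS6 was not called (edgeR adjusted p = 0.5388).

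Of the FOXO target genes, 1 rose and 4 fell, and 9 were not called. FBXO32, a muscle ubiquitin ligase component, rose by 0.65 on the log2 scale (edgeR adjusted p = 0.00283). CDKN1B, the cell cycle inhibitor p27, had 44.8 ± 5.79 CPM in WT and 32.9 ± 3.91 CPM in ARID1A-KO (SD, n = 3 each; log2 fold change -0.44, edgeR adjusted p = 0.0133). With its neighbour median as an offset, CDKN1B had -0.29 and was not called (edgeR adjusted p = 0.08004). The sestrin genes SESN1 and SESN3 had -0.30 (edgeR adjusted p = 0.0444) and -0.54 (edgeR adjusted p = 0.00901), and the call of SESN1 was lost in 5 of 13 alternative fits. SOD2, the mitochondrial superoxide dismutase, had -0.98 (edgeR adjusted p = 2.11e-05) among neighbours with a median of -1.05, and with that offset it had 0.068 (edgeR adjusted p = 0.5279). The proapoptotic target BCL2L11 had -0.033 (edgeR adjusted p = 0.818), and INSR, the insulin receptor gene, had 0.082 (edgeR adjusted p = 0.638). IRS2, TNFSF10 and TRIM63 had too few reads for a test.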

How the data were processed

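RNA was sequenced from 3 WT and 3 ARID1A-KO samples, grouped by the sample labels. The labels name polyA RNA, whereas the methods describe a stranded total RNA kit. Paired reads had been aligned to hg19/GRCh37 by STAR (Roddy workflow) and counted by featureCounts. The deposited counts are raw and are given per strand and unstranded. The deposited TPM values divide these counts by exonic length and have the same sum in every sample.

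Members were read from reverse-stranded counts. After filterByExpr and TMM normalization, the genotypes were compared over all 6 samples with edgeR's quasi-likelihood test (edgeR 4.0.16, limma 3.58.1, R 4.3.3), adjusted by Benjamini-Hochberg over all genes tested. TPM shares were compared with exact permutation tests (Python 3.11.15, SciPy 1.17.1). The edgeR fit, without and with an offset, was run on simulated counts with few changed genes and the same spread for every gene. The other alternatives were not run on simulated counts. Counting error is small at this depth for all members other than PIK3R2 and PIK3IP1.

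The members and lists were chosen with earlier results of these data known. Genes named are ARID1A, the members, PDPK1, AKT1, AKT2, TSC1, TSC2, MTOR, FOXO1 and FOXO3, list genes called with a 2-fold change and a mean log2 CPM over 1, the 5 genes most correlated with PIK3IP1, genes overlapping a member (those without enough reads are summarised) and the nearest tested gene on either side. Other list genes were named after their values were seen. Some genes that this rule names are not reported here. Alternatives were unstranded counts, RLE size factors, a minimum of 10 counts per sample, DESeq2 1.42.0, no filter, a replicate block, the neighbour median within 5 Mb as an offset, leaving out 1 sample at a time, an adjusted p of 0.01, a 2-fold change, and for TPM 1 added, a TPM of at least 1 or unstranded TPM. No 2 samples of a genotype were as alike as sampling noise allows (chi-square of 6.95 to 33.4 for each gene on average).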

Additional observations from a re-analysis of the deposited data

How the results depend on the processing

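Of all 19599 genes tested, 4414 were called at an adjusted p under 0.01 and 2113 with a 2-fold change. Of the 7 tested members 2 and 1 were called, and of the 67 other pathway genes tested 16 and 2. Without 1 sample, 2 to 4 members were called, beside 5285 to 7050 of all genes. The log2 fold change of PIK3IP1 was 0.60 with RLE size factors (edgeR adjusted p = 0.05001), 0.41 on unstranded counts and 0.39 to 0.81 without 1 sample. Replicate numbers were not used as pairs in the main fit. Correlations of deviations from the group means were -0.177, 0.268 and 0.18 for samples with the same number. They ran from -0.42 to 0.295 for samples with different numbers. These values do not settle whether the same number pairs the samples. With a replicate block the value for PIK3IP1 was 0.63 (edgeR adjusted p = 0.02181), and 4 members were called. In all, 7477 genes were called with the block and 7099 without it. With the neighbour median as an offset the sign turned for PIK3CA (0.15), PIK3CB (0.014), PIK3CD (-0.066), PIK3R3 (-0.10), PDPK1 (-0.088), LRRFIP1P1 (0.077), FAIM (0.14), POMGNT1 (-0.028), PIK3R4 (0.11) and SOD2 (0.068). Of these, PIK3CB, PIK3R4 and SOD2 had been called. Without 1 sample the values crossed 0 for PIK3CD (-0.13 to 0.094), PIK3R3 (-0.041 to 0.071), PDPK1 (-0.012 to 0.054), FOXL2NB (-0.33 to 0.77), TMEM201 (-0.11 to 0.07) and the difference in the ratio of regulatory to catalytic TPM (-0.016, without ARID1A-KO replicate 5, to 0.0731), none of which had been called. Of 803 alternative values for 62 genes, 728 kept their direction and call, 50 lost the call, 5 gained one and 20 turned sign. The cause of these changes was not tested. For PIK3IP1, with 102 to 286 counts per sample, and PIK3R2, depth limits the precision, and effects of the clone and of the knockout cannot be told apart.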
